A study of Rattus norvegicus with 16 samples.

Results

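The cytosolic heat shock chaperones described here are 10 genes, Hspa8, Hspa4, Hspa4l, Hsph1, Dnajb1, Hsp90aa1, Hsp90ab1, Fkbp4, Chordc1 and Hspb1, found by gene symbol in both deposited count tables. They occupy 11 of the 32754 rows, because Hspa8 is listed under 2 identifiers. The RNA came from rat (Rattus norvegicus) brain. By the title, the dissected site was the nucleus ambiguus, a column of motor neurons in the medulla that serves the larynx and pharynx. All animals were 8 months old and were either wild type or Pink1-/-, a genotype in which the gene of the mitochondrial kinase PINK1 is disrupted in the whole animal rather than in a chosen cell type. Males and females of each genotype gave 4 libraries per group, 16 in all, each named here by the animal number in its label. The labels give no strain, and the labelled tissue is brain, so which part of the brain each library holds is known only from the title.

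Cytosolic chaperones bind unfolded or partly folded proteins to fold, hold or hand them on, and HSP70 and HSP90 proteins use ATP to do so. HSP70 proteins such as Hspa8 are loaded with clients by J-domain proteins and released by nucleotide exchange factors of the HSP110 family, and HSP90 proteins take over clients such as kinases and steroid receptors with the help of co-chaperones. Heat shock factor 1, the transcription factor Hsf1, raises many of these genes under stress by binding promoter elements built of inverted GAA units. Neurons of the brainstem motor nuclei are large, long-lived cells, and Hspb1 is known to be present in motor neurons of the rodent brainstem without any stress.

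Promoter sequences (RefSeq, build GRCr8, 250 bases before to 50 bases after the start position of each promoter entry) were found for 9 of the 10 genes, all but Hsp90aa1. The letters GAANNTTCNNGAA, 3 inverted units of the heat shock element, were searched on both strands, where the other strand reads TTCNNGAANNTTC. They occurred in 3 of the 9 promoters (Chordc1, Hspa8 and Hsph1) and in 0.798% of all 33469 promoters of that length. The shorter forms of 2 units, GAANNTTC or TTCNNGAA, lie within the longer motif and occurred in 7 of the 9 promoters and in 15.9% of all promoters. The promoters of Hspa4 and Hsp90ab1 held neither form, which says only that these letters are not in that window. The stretches below are shown because they carry the longest matches and, for Hspb1, because its RNA varied most between libraries. Capitals mark the matched letters, and positions count from the start position of the promoter entry. For Hspa8, Hsph1 and Hspb1 this is the RefSeq gene start. The Chordc1 entry starts downstream of its RefSeq gene start (chr8:23650721), and its match would lie outside a window placed there. In Chordc1 the match runs from +11 to +33 and joins 5 units, in Hspa8 the matches lie at -213 to -201 and at -55 to -43, in Hsph1 at -36 to -24, and in Hspb1 a pair of 2-unit matches spans -129 to -102.
Chordc1, chr8:23650828-23650856, plus strand: ccgGAACGTTCGGGAAGATTCCTGAAgca
Hspa8, chr8:50080287-50080327, plus strand: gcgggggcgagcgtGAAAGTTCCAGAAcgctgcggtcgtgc
Hspa8, chr8:50080445-50080485, plus strand: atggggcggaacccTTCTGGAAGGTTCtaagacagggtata
Hsph1, chr12:10427318-10427358, plus strand: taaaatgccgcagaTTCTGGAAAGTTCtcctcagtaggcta
Hspb1, chr12:26432389-26432444, minus strand: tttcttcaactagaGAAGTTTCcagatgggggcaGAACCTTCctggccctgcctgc
A match to these letters is a description of the sequence and not a measured binding site.

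Levels are estimated counts from RSEM scaled by library size (CPM) within a sex, with TMM (trimmed means) factors, and they are not divided by transcript length, so genes are compared between libraries and not with each other. Males had library totals between 10959412 and 13691846 counts, and females between 13875621 and 26570195. Pink1 itself, the check of the labels, lay at 64.7 to 78.3 CPM in wild-type and 1.51 to 2.32 CPM in Pink1-/- males, and at 115 to 137 CPM in wild-type and 4.68 to 11.6 CPM in Pink1-/- females. The sexes sit in separate tables of differing composition, with mitochondrial-clone loci taking 36.5% to 44.0% of male counts and 1.77% to 11.9% of female counts. Whether the tables came from separate processing runs is not stated in the labels. Sex therefore cannot be told apart from any other difference between the tables, and levels are not compared between sexes. The acetylcholine-synthesising enzyme Chat, a defining motor neuron marker, was present in all 16 libraries at uneven levels, 6.78 to 27.1 CPM in males and 6.24 to 76.9 CPM in females. Libraries that stood apart were male Pink1-/- 17, with 2.10% of its counts on the 7SL RNA gene Rn7sl1 against 0.141% to 0.726% in the other males, female wild-type 504, with the highest Chat level, and female Pink1-/- 548. The last of these held the lowest female share of mitochondrial-clone counts, 1.77% against 8.08% to 11.9% in the other 7 females, and its counts differed from those of its own group by a chi-square per degree of freedom of 79.4 to 129, against 10.1 to 52.6 for every other pair within a female group. Oligodendrocyte markers (6 genes) summed to 7771 to 9497 CPM in males and 11832 to 16241 CPM in females, with overlapping genotypes in each sex, so the tissue was not motor neurons alone.

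In males, no chaperone passed the edgeR quasi-likelihood test at a Benjamini-Hochberg adjusted p under 0.05, while 317 of 13770 genes did, 2.3% of those tested. The smallest adjusted p-values belonged to Chordc1 and Hspa4l, whose Pink1-/- levels were lower than every wild-type library. At an unadjusted p under 0.05 there were 5 chaperones, all lower in Pink1-/- (Chordc1, Hspa4l, Hsp90aa1, Hspa4 and Hspa8), 5 of 10 against 12.1% of all genes for lower values at that p. Groups did not overlap for 3 of 10 (Chordc1, Hspa4l and Hspa8, all lower in Pink1-/-), and 8.04% of all genes had non-overlapping groups with lower values. The median log2 fold change of the 10 genes was -0.09 with 6 below 0, beside 0.01 over all genes, of which 49.2% were below 0.

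Chordc1, a co-chaperone that binds HSP90, was at 104, 115, 127 and 115 CPM in the wild-type animals 20, 22, 23 and 24. In Pink1-/- males 17, 18, 19 and 25 it was at 98.6, 88.5, 74.9 and 100 CPM, so all 4 lay below the lowest wild-type library. The mean went from 115 ± 9.23 to 90.6 ± 11.7 CPM (SD, n = 4 each), a log2 fold change of -0.35 (SE 0.10, 95% interval -0.56 to -0.13) with an unadjusted p of 0.0038 and an edgeR adjusted p of 0.0769. The authors' deposited table gives the same gene a log2 fold change of -0.35 and a false discovery rate of 0.0337, in a list where 859 of 13828 genes lie under 0.05. Its call therefore depends on the test: DESeq2 gave an adjusted p of 0.0216, and edgeR on all 16 libraries in 1 fit gave 0.0341.

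Hspa4l, an HSP110 protein that exchanges nucleotide on HSP70, was at 262, 268, 306 and 257 CPM in wild-type males 20, 22, 23 and 24. The Pink1-/- males 17, 18, 19 and 25 had 216, 230, 234 and 237 CPM, again all below the lowest wild-type library. The mean went from 273 ± 22.1 to 229 ± 9.33 CPM (n = 4 each; edgeR adjusted p = 0.0811, log2 fold change -0.25 with SE 0.07). The authors' deposited table gives a false discovery rate of 0.119 for Hspa4l, and DESeq2 gave an adjusted p of 0.0238. Its relative Hspa4 was at 219, 251, 276 and 244 CPM in wild-type males 20, 22, 23 and 24, and at 211, 225, 218 and 215 CPM in Pink1-/- males 17, 18, 19 and 25. The groups of Hspa4 overlapped, through wild-type 20, and the log2 fold change was -0.19 (SE 0.08, edgeR adjusted p = 0.157). Hsph1, the stress-inducible HSP110 protein, did not share the lower values: it was at 191 ± 13.3 CPM in wild type and 203 ± 8.54 CPM in Pink1-/- males (log2 fold change 0.09, edgeR adjusted p = 0.421).

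Hspa8, the constitutive cytosolic HSP70 that also uncoats clathrin vesicles, was at 1815, 1777, 1929 and 1834 CPM in wild-type males 20, 22, 23 and 24. It was at 1642, 1625, 1509 and 1774 CPM in Pink1-/- males 17, 18, 19 and 25, so the groups were separated only by the gap between 1774 and 1777 CPM. The log2 fold change was -0.17 (SE 0.08, unadjusted p = 0.04999, edgeR adjusted p = 0.191). The second Hspa8 identifier had 0 to 13 counts per male library and was too low to test there, and 102 to 403 counts per female library. Processed copies of Hspa8 are common in rodent genomes, and how RSEM divided reads between the Hspa8 rows is uncertain. Dnajb1, the stress-inducible J-domain partner of HSP70, was at 33.5 ± 3.08 CPM in wild-type and 34.4 ± 5.17 CPM in Pink1-/- males, with its highest level in Pink1-/- 17 at 41.9 CPM.

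Hsp90aa1, the stress-inducible form of cytosolic HSP90, was at 1604, 1901, 2045 and 1788 CPM in wild-type males 20, 22, 23 and 24. It was at 1344, 1607, 1589 and 1513 CPM in Pink1-/- males 17, 18, 19 and 25, and the groups overlapped by a single pair, wild-type 20 and Pink1-/- 18. The mean went from 1835 ± 186 to 1513 ± 120 CPM, with an edgeR adjusted p of 0.108, a DESeq2 adjusted p of 0.0390 and a log2 fold change of -0.28 (SE 0.09). Hsp90ab1, the constitutive form, was at 1010 ± 105 CPM in wild-type and 1020 ± 95.2 CPM in Pink1-/- males, a log2 fold change of 0.02 with a 95% interval of -0.19 to 0.22. Fkbp4, an immunophilin that carries steroid receptors with HSP90, was at 117 ± 9.67 and 116 ± 11.9 CPM (log2 fold change -0.02, 95% interval -0.21 to 0.17).

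**Figure D1:**
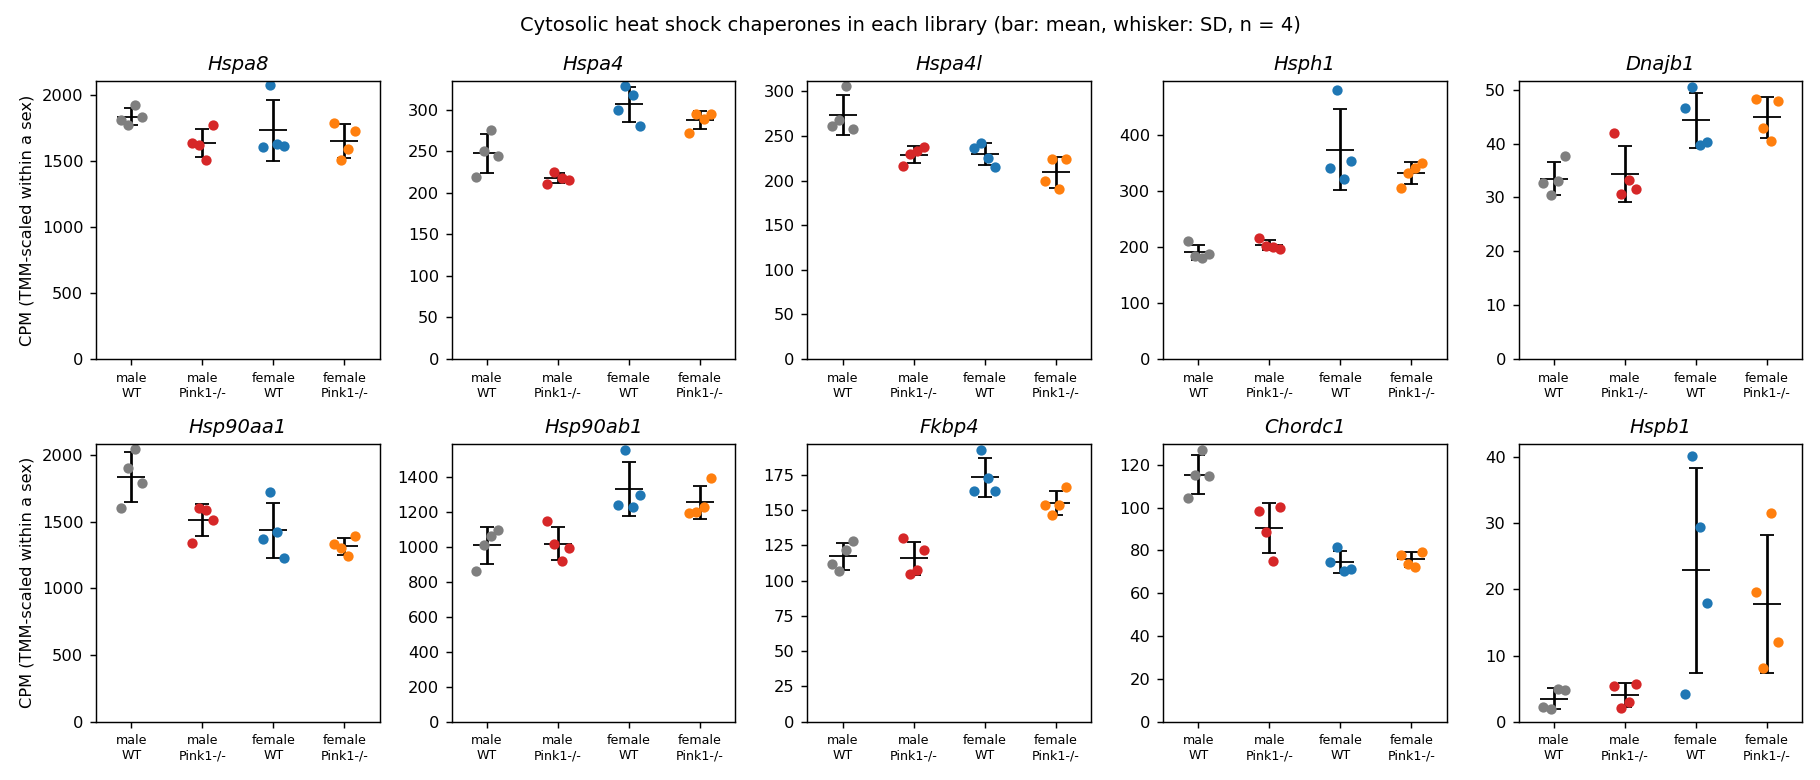
TMM-scaled CPM (y axis, from 0) of each chaperone in each library, by sex and genotype, with the mean as a bar and the SD as a whisker (n = 4 per group). In males, the Pink1-/- points of Chordc1, Hspa4l and Hspa8 lie below all wild-type points, and in females every gene has overlapping groups, with wild-type 504 on top.

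Leaving out male Pink1-/- 17 kept the sign of the 5 lower genes. Without it the log2 fold change was -0.39 for Chordc1, -0.23 for Hspa4l, -0.23 for Hsp90aa1, -0.17 for Hspa4 and -0.17 for Hspa8, and none passed the adjusted threshold. Other signals moved with genotype in the same libraries. Choroid plexus and meningeal markers (6 genes in 7 rows, because the matrix protein gene Ogn has 2 identifiers) summed to 25.2 to 32.9 CPM in wild-type and 14.8 to 19.3 CPM in Pink1-/- males. Of that sum, 1 Ogn row took 10.4 to 17.7 CPM in wild-type and 3.43 to 4.44 CPM in Pink1-/- males. The marker Ttr was near 0, at most 0.169 CPM in wild-type and 1.04 CPM in Pink1-/- males. In males 5 rows of 4 of these genes were tested, and all 5 were below 0. Of these, 1 row of Ogn passed (log2 fold change -1.81, edgeR adjusted p = 0.000248), while the other Ogn row was at -0.61 (adjusted p = 0.182). The share of counts on the protein genes of the mitochondrial genome, those with the prefix Mt-, was 8.69% to 9.34% in wild-type and 5.89% to 8.57% in Pink1-/- males, so the genotypes did not overlap. They did not overlap in females either, at 4.54% to 5.19% in wild type and 3.42% to 4.33% in Pink1-/-. Of the other cell type markers in males, 1 of 6 for microglia (P2ry12, 0.59, edgeR adjusted p = 0.0465) and 1 of 5 for vessel cells (Pdgfrb, 0.58, adjusted p = 0.0318) rose. Over all genes 2.3% passed in males. For motor neurons, neurons, astrocytes, oligodendrocytes and immediate early genes, 0 of 8, 6, 5, 6 and 4 passed. The part of these cells and of the mitochondrial share in the chaperone values was not tested, and in bulk tissue fewer cells of a type cannot be told apart from less RNA per cell.

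In females, 0 of the 11 tested rows passed, as against 9 of 15265 genes (0.059%), and 0 had an unadjusted p under 0.05 against 4.64% of all genes. DESeq2 called 0 of them as well. Groups overlapped for all 11 rows, and 3.38% of all genes had groups that did not. The median log2 fold change was -0.12 with 9 of 11 below 0, beside 0.00 over all genes, of which 49.7% were below 0. Adjusted p-values lay between 0.993 and 0.995. The largest differences in the direction of lower levels, other than that of Hspb1 and the second Hspa8 row, were those of Hsph1, from 373 ± 72.5 to 332 ± 19.3 CPM (log2 fold change -0.17, 95% interval -0.43 to 0.09), and of Fkbp4, from 173 ± 13.7 to 155 ± 8.46 CPM (log2 fold change -0.16, 95% interval -0.32 to 0.00, unadjusted p = 0.0548, edgeR adjusted p = 0.993). Hspa4l went from 230 ± 11.8 to 209 ± 17.4 CPM (log2 fold change -0.13), Hspa4 from 306 ± 21.3 to 287 ± 10.9 CPM (-0.09), and Hsp90ab1 from 1332 ± 153 to 1257 ± 95.8 CPM (-0.08).

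Chordc1 in females was at 74.7, 81.5, 70.5 and 71.4 CPM in wild-type 111, 504, 64 and 980, and at 77.8, 73.8, 72.2 and 79.3 CPM in Pink1-/- 548, 602, 736 and 983. These groups are interleaved, with means of 74.5 ± 4.98 and 75.8 ± 3.32 CPM and a log2 fold change of 0.02 (95% interval -0.13 to 0.18). Hsp90aa1 was at 1371, 1722, 1426 and 1228 CPM in the same wild-type order and at 1331, 1302, 1243 and 1396 CPM in the same Pink1-/- order. Wild-type libraries thus held both its highest and its lowest female level (log2 fold change -0.12, SE 0.10). Dnajb1 (44.3 ± 5.18 and 44.8 ± 3.86 CPM) and Hspa8 (1734 ± 231 and 1657 ± 129 CPM) had log2 fold changes of 0.02 and -0.07, and the second Hspa8 row had -0.23 (SE 0.22).

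Female wild-type 504 had the highest level of all 10 chaperone genes among the 8 females, whereas it was the highest of the 8 for 20.4% of all tested genes. Hspa8 was at 2080 CPM in 504 and at 1610, 1627 and 1617 CPM in wild-type 111, 64 and 980, and Hsph1 was at 480 CPM in 504 against 321 to 352 CPM in those 3. Without 504 the female log2 fold change was -0.03 for Hsph1, -0.10 for Fkbp4, -0.03 for Hsp90aa1, -0.06 for Hspa4 and -0.11 for Hspa4l, and it changed sign for Hspa8 (0.03), Hsp90ab1 (0.00) and Hspb1 (0.07). Without 504, 6 of the 11 rows were below 0 and their median was -0.03. Without female Pink1-/- 548, 0 of the 11 rows passed, the sign changed for Dnajb1 (log2 fold change -0.02), and the second Hspa8 row was at -0.36. In males no library was highest throughout: wild-type 23 was highest for 5 genes (20.8% of all genes), and Pink1-/- 17 was highest for 4 (28.7%) and lowest for 3 (25.3%). The pairwise Pearson correlation of log2 CPM between chaperones had a median of 0.24 over the 8 males and 0.58 over the 8 females (45 pairs each), and the median Spearman rho was 0.12 and 0.36. The female Pearson median was 0.17 without wild-type 504 and 0.61 to 0.68 without any other library. The male one was 0.11 to 0.39 with each library left out (0.11 without Pink1-/- 18 or wild-type 23, 0.14 without Pink1-/- 19, 0.39 without Pink1-/- 17). These values share library depth and scaling.

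**Figure D2:**
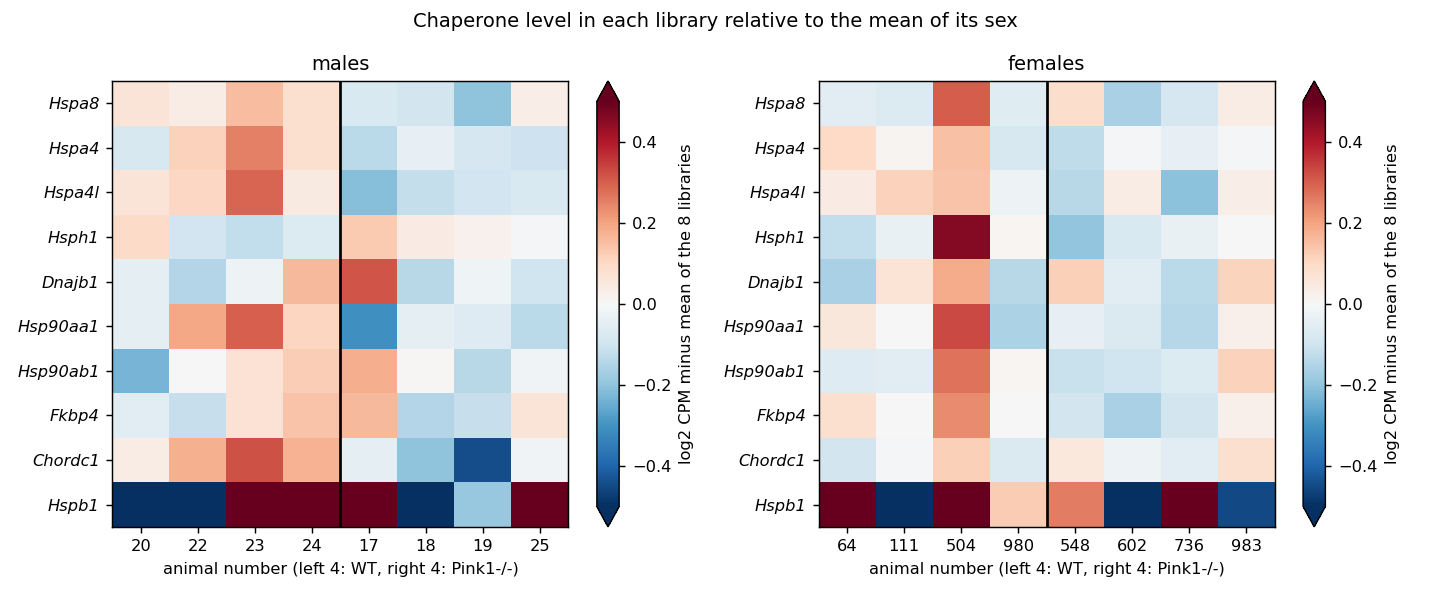
Colour gives the log2 CPM of each chaperone (rows) in each animal (columns) minus the mean of the 8 libraries of its sex, with wild type left and Pink1-/- right of the line and the scale ending at 0.5 in either direction. Female wild-type 504 is above the female mean in every row, and male Pink1-/- 17 is above the male mean for Hsph1, Dnajb1, Hsp90ab1 and Fkbp4 and below it for Hspa4, Hspa4l and Hsp90aa1.

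With sex as a term over all 16 libraries, 0 of 11 rows passed, against 103 of 15042 genes (0.685%), and 4 had an unadjusted p under 0.05, all lower in Pink1-/-, against 8.49% of all genes for lower values. Hspa4l had the smallest p in that fit, with a log2 fold change of -0.20 (SE 0.05, 95% interval -0.31 to -0.09) and an edgeR adjusted p of 0.107. DESeq2 gave Hspa4l an adjusted p of 0.0171 in the same design, and edgeR gave 0.0471 once female wild-type 980 was left out. Hsp90aa1 followed at -0.21 (adjusted p = 0.212), Hspa4 at -0.15 (0.215) and Chordc1 at -0.17 (0.301). Of the 11 rows 10 were below 0, with a median of -0.14, beside 49.5% and 0.00 over all genes. These fits reuse the libraries of the fits within each sex and are no further evidence of direction.

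The difference between the female and the male genotype effect was tested as an interaction, which 12 of 15042 genes passed (0.0798%) and 0 of the 11 chaperone rows did. Chordc1 was the 1 row with an unadjusted p under 0.05, against 14% of all genes, with a female effect higher than the male effect by 0.38 on the log2 scale (SE 0.12, 95% interval 0.12 to 0.63, unadjusted p = 0.0067, edgeR adjusted p = 0.223). For Hsph1 the difference was -0.26 (SE 0.14, adjusted p = 0.423), and for Hspa4l it was 0.12 (95% interval -0.10 to 0.34). At this precision a sex difference in the genotype effect was not detectable for any of these genes. Any such difference could not be told apart from other differences between the tables.

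**Figure D3:**
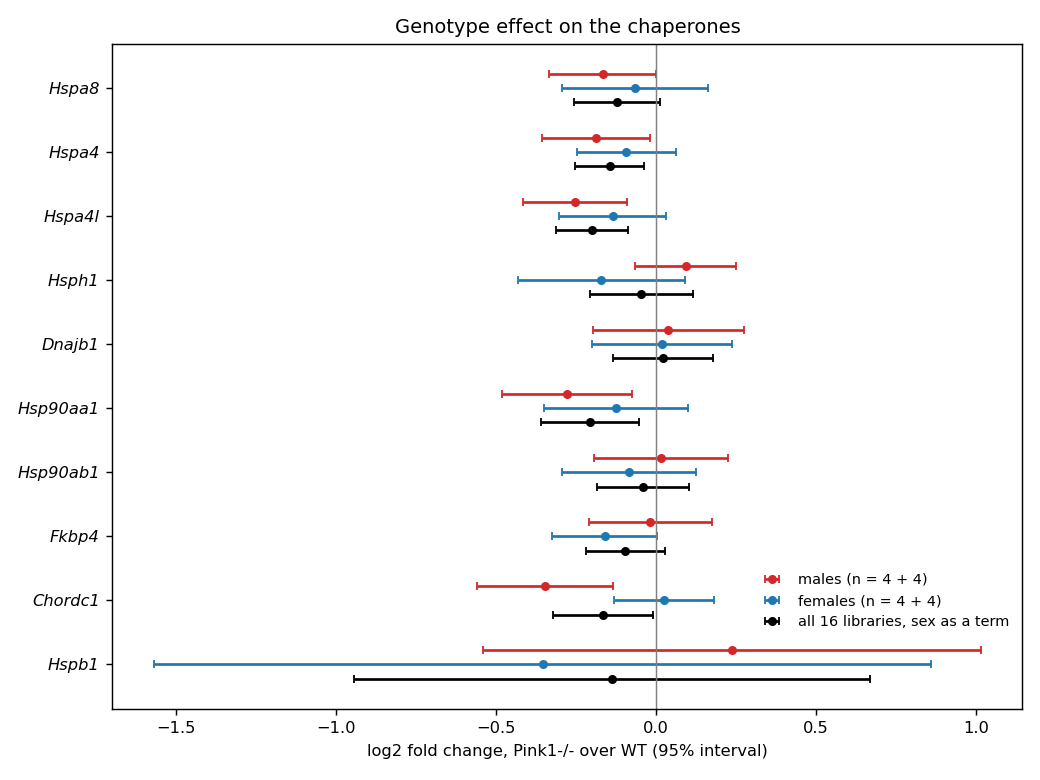
Genotype effect as the log2 of Pink1-/- over wild-type level (x axis) for each chaperone, with 95% intervals, in males, in females (n = 4 + 4 each) and over all 16 libraries with sex as a term. The male intervals of Chordc1, Hspa4l, Hspa4, Hsp90aa1 and, narrowly, Hspa8 lie below 0 before adjustment, and the interval of Hspb1 is the widest.

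The ratio of Hsp90aa1 to Hsp90ab1 counts within a library, inducible over constitutive HSP90, does not depend on the scaling. In males it was 1.86, 1.88, 1.92 and 1.62 in wild-type 20, 22, 23 and 24, and 1.17, 1.58, 1.73 and 1.52 in Pink1-/- 17, 18, 19 and 25. Only Pink1-/- 19 lay above the lowest wild-type library. The means were 1.82 ± 0.134 and 1.50 ± 0.236, a log2 difference of -0.29 with an exact 2-sided permutation p of 0.0571, where 4 against 4 libraries can give no p under 0.0286. Without Pink1-/- 17 the log2 difference was -0.18 (exact p = 0.0857). In females the means were 1.08 ± 0.0914 and 1.05 ± 0.0561 (log2 difference -0.04, exact permutation p = 0.686). The ratio of Fkbp4 to Fkbp5, immunophilins with opposed effects on the glucocorticoid receptor, was 8.43 ± 0.136 and 8.02 ± 0.949 in wild-type and Pink1-/- males (exact permutation p = 0.314) and 3.88 ± 0.786 and 3.59 ± 0.318 in females (exact permutation p = 0.629).

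**Figure D4:**
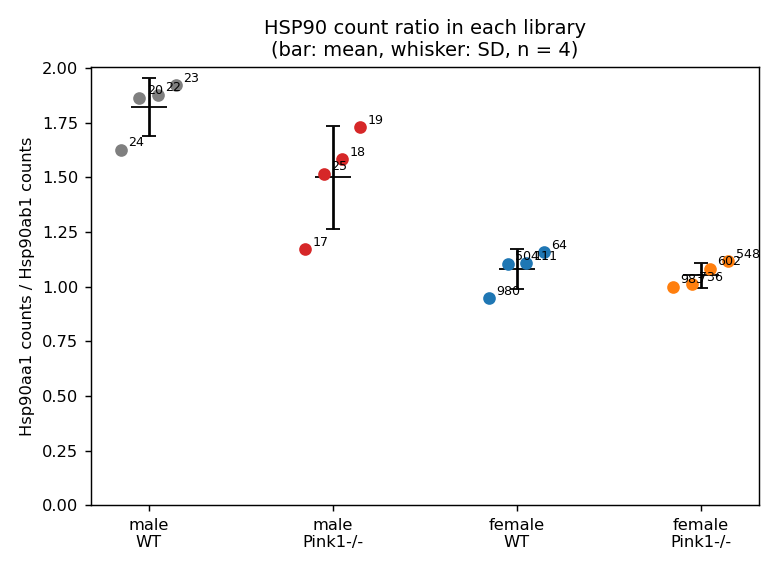
Ratio of Hsp90aa1 to Hsp90ab1 counts (y axis, from 0) in each library, labelled by animal number, with the group mean as a bar and the SD as a whisker (n = 4). Male Pink1-/- 17 is lowest of the males at 1.17, and the female groups overlap.

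Hspb1, the small heat shock protein HSP27, which holds unfolded proteins without ATP and whose mutations cause motor neuropathy in humans, varied between libraries more than any of the other 9 genes in their tested rows. In females it was at 4.14, 40.1, 29.4 and 17.9 CPM in wild-type 111, 504, 64 and 980, and at 19.6, 8.06, 31.6 and 11.99 CPM in Pink1-/- 548, 602, 736 and 983. Both extremes were wild-type libraries, 9.68-fold apart, and the genotypes overlapped throughout (22.9 ± 15.4 and 17.8 ± 10.4 CPM, log2 fold change -0.35, 95% interval -1.57 to 0.86, edgeR adjusted p = 0.993). In males it was low, 1.95 to 5.70 CPM on 26 to 79 counts per library, at 3.48 ± 1.62 CPM in wild type and 4.05 ± 1.76 CPM in Pink1-/- (log2 fold change 0.24, SE 0.36, adjusted p = 0.693).

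The level of Hspb1 followed motor neuron marker RNA across the female libraries. Across the 8 females its CPM correlated with the summed CPM of 9 motor neuron markers, with Pearson's r = 0.958 (exact permutation p = 0.000174, adjusted p = 0.00522) and Spearman's rho = 0.976 (adjusted p = 0.0119), and r was 0.933 without the 2 libraries farthest from the median sum. Nefh, a neurofilament of many large neurons, makes up most of that sum, so the relation with Chat alone was added after seeing the sum. Chat was at 6.24, 76.9, 55.0 and 33.7 CPM in wild-type 111, 504, 64 and 980 and at 40.9, 13.0, 57.4 and 16.7 CPM in Pink1-/- 548, 602, 736 and 983, the same order as Hspb1 in all 8. For Chat r was 0.994 (exact permutation p = 2.48e-05, adjusted p = 0.00149), rho was 1 (adjusted p = 0.00298), and r was 0.986 without the 2 farthest libraries. In the 8 males r was 0.768 for the sum (adjusted p = 0.268, rho = 0.738, 0.600 without the 2 farthest) and 0.910 for Chat (adjusted p = 0.171, rho = 0.714, 0.963 without the 2 farthest), and neither passed. These are 4 of 60 relations computed, over 10 genes, both sexes and 3 measures (the marker sum, Chat and the share of Rn7sl1). The other 56 did not pass at an adjusted p under 0.05, and the closest was Hsph1 with the Rn7sl1 share in males (r = 0.745, adjusted p = 0.0566, rho = 0.833, 0.555 without the 2 farthest). Within a genotype, with 4 libraries each, no coefficient is given, and the female order by Chat and by Hspb1 was the same in each genotype. General neuron markers (6 genes) varied in nearly the same order as Hspb1 in females. They summed to 3619, 6693, 5596 and 4072 CPM in wild-type 111, 504, 64 and 980. In Pink1-/- 548, 602, 736 and 983 they summed to 4420, 3222, 5355 and 3691 CPM. Their relation with Hspb1 was not tested, so the relation is not shown to be particular to motor neuron markers. Counts were not measured per cell, so whether Hspb1 RNA lay in motor neurons was not tested.

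**Figure D5:**
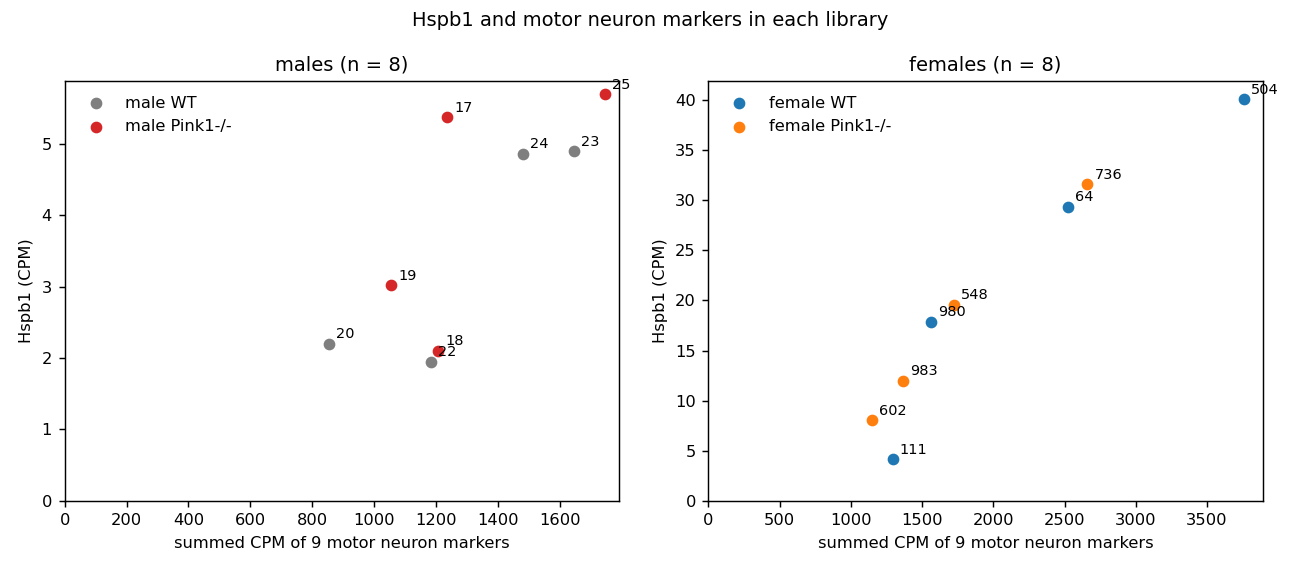
Hspb1 CPM (y axis) against the summed CPM of 9 motor neuron markers (x axis) in each library, labelled by animal number, for males and females on their own scales. In females Pink1-/- 602 (8.06 CPM of Hspb1) and wild-type 111 (4.14 CPM) lie at the low end of the marker sum and wild-type 504 (40.1 CPM) at the high end, with both genotypes between.

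Genes outside the group whose level over the libraries was most like the mean profile of the 10 chaperones, by the smaller Pearson r of both sexes among 12288 genes, included Ankrd50 (r = 0.901 in 8 males and 0.898 in 8 females), Hspb8 (0.935 and 0.889), Trim16 (0.988 and 0.883) and Dyrk3 (0.914 and 0.870). Hspb8 is another small heat shock protein. Hspb1 weighs most in that profile, since its log2 CPM had an SD of 0.63 over the males and 1.10 over the females, against 0.09 to 0.24 and 0.08 to 0.20 for the other 9 genes. With the mean of those 9 in its place, an alternative chosen after seeing the data, the female r was 0.46 for Ankrd50, 0.44 for Hspb8, 0.66 for Trim16 and 0.47 for Dyrk3, and the 4 ranked 790, 880, 122 and 753 among the 12288 genes. None of these 4 passed the genotype test in either sex.

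Other genes of the HSP70 cycle did not pass either. Of the further HSP70 family genes, 0 of 6 tested in males and 0 of 8 in females passed, and 3 were below 0 in each sex. Hspa13, a microsomal HSP70, went from 84.3 ± 3.87 to 70.1 ± 5.06 CPM in males (log2 fold change -0.27, adjusted p = 0.0724), and Hspa2 went from 8.18 ± 1.79 to 11.6 ± 2.54 CPM (0.51, adjusted p = 0.123). The classic inducible HSP70 gene Hspa1b had 284 counts in male Pink1-/- 17 and 21 to 82 in the other 7 males (log2 fold change 1.16, SE 0.60, adjusted p = 0.235), and 149 to 451 counts in females. Its near-identical copy Hspa1a had 0 counts in every male, so how reads were split between the copies is uncertain. Among 15 J-domain proteins, 0 passed in either sex and 12 were below 0 in males and 13 in females, with Dnajb4 (-0.25, adjusted p = 0.106) and Dnaja1 (-0.24, adjusted p = 0.121) having the smallest male p-values. Among 9 HSP70 partners 0 passed, and 4 were below 0 in males (median 0.23) and 7 in females (median -0.03). In males the silencer of death domains Bag4 was at 0.44 (edgeR adjusted p = 0.0801) and the ubiquitin ligase Stub1 at 0.42 (adjusted p = 0.0982). Bag2, an inhibitor of that ligase, was at -0.72 in females (adjusted p = 0.658) and -0.55 over all 16 libraries (adjusted p = 0.0539).

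Of the chaperone lists, only that of HSP90 partners held genes that passed. Of 20 tested in males 1 rose and 1 fell, while 2.3% of all genes passed in males. These are single genes in opposite directions and not a shared change of the list. Unc45a, a myosin and HSP90 co-chaperone, rose from 5.12 ± 0.669 to 8.45 ± 1.39 CPM (edgeR adjusted p = 0.0352, log2 fold change 0.72). Pih1d1, a subunit of the R2TP complex that works with HSP90, fell from 4.05 ± 0.662 to 2.23 ± 0.391 CPM (-0.84, edgeR adjusted p = 0.0465). Pih1d1 also fell over all 16 libraries (-0.70, adjusted p = 0.0022), while in females, where 0 of 20 passed, its log2 fold change was -0.59 (adjusted p = 0.313). The median of the 20 was -0.08 in males and -0.05 in females. In the list of glucocorticoid receptor targets, chosen because Fkbp4 and Fkbp5 act on that receptor, 1 of 11 rows fell in males. Beside it, 2.3% of all genes passed in males. The row was the kinase Sgk1, which went from 104 ± 25.3 to 59.0 ± 14.5 CPM (-0.82, edgeR adjusted p = 0.0459). In females 0 of 11 passed, and Sgk1 was at -0.50 (adjusted p = 0.993).

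The remaining chaperone lists had 0 genes passing in either sex. For small heat shock proteins 0 of 4 passed in males and 0 of 5 in females, with 3 below 0 in each sex. Hspb8 was at -0.24 in males and -0.39 in females (edgeR adjusted p = 0.423 and 0.993). For the cytosolic chaperonin and prefoldin, 0 of 14 passed, with 9 below 0 in males and 14 in females, where Cct4 was at -0.29 (adjusted p = 0.0814) and Pfdn6 at 0.47 (adjusted p = 0.0781) in males. Of the heat shock factors and regulators 0 of 4 passed in males and 0 of 6 in females. In males 2 were below 0 (median 0.20), and in females 3 were (median -0.01). Hsf1 itself was at 5.76 ± 0.752 and 7.95 ± 2.23 CPM in wild-type and Pink1-/- males (log2 fold change 0.48, edgeR adjusted p = 0.145), with Hsf4 at 0.62 (adjusted p = 0.105). Of the other known heat shock factor targets 0 of 8 passed in each sex. In males 3 of the 8 were below 0 (median 0.18), and in females 5 were (median -0.15). Among them the mitochondrial chaperonin Hspd1 was at -0.17 in males (adjusted p = 0.265). Endoplasmic reticulum chaperones had 0 of 14 passing in each sex, with 13 below 0 in males (median -0.17, with Dnajb9 at -0.26, adjusted p = 0.0840) and 9 below 0 in females (median -0.02). Mitochondrial chaperones had 0 of 9 passing and 6 below 0 in each sex. The disaggregase Clpb was at 0.31 in males (edgeR adjusted p = 0.0929) and the co-chaperonin Hspe1 at -0.33 in females (adjusted p = 0.993).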

How the data were processed

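RNA-seq of 16 rat libraries was deposited by the authors as 1 table of expected counts per gene and 1 comparison table per sex. The submitters' processing notes name RSEM and edgeR 3.9. Which aligner, build and annotation they used is not given in the sources. The deposited expected counts were whole numbers and were used as they stand. Per the file headers, the authors' tables hold log2 fold changes and log2 CPM, a p-value with its false discovery rate, and a likelihood ratio score. Columns were matched to labels through the animal numbers, and 0 sample columns were left unused. Whether RNA strand was kept is not stated.

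Each sex was filtered with filterByExpr (minimum count 10, total 15), scaled by TMM and tested with edgeR 4.0.16 quasi-likelihood functions in R 4.3.3. P-values were adjusted over all genes tested, at a threshold of 0.05. SE is the size of the log2 fold change divided by the root of F. Log2 CPM used a prior count of 2. Alternatives used DESeq2 1.42.0 and sva 3.50.0. Scripts were tested on simulated data. That the libraries are separate animals rests on the labels' animal numbers, and no pair within a group differed by as little as counting noise.

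The chaperones, lists and tests were chosen with earlier results of these data known. Named genes are all 10 chaperones, the list genes that passed, otherwise the 2 of a list with the smallest p (values only, not all printed), and the 5 most alike, some of which are not reported here. Hspa1a, Hspa1b, Chat, Nefh and Rn7sl1 fall outside that rule and were named after their values were seen. RefSeq promoters of GRCr8 supplied sequences only. Precision is limited by 4 libraries per group, and counts under 100 (such as those of Hspb1 in males) by depth. Unc45a, Pih1d1 and Hsf1 also had low CPM in males.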

Additional observations from a re-analysis of the deposited data

Results flagged for a closer look

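Among 52 groups of 4 libraries examined (each chaperone row and ratio in each group), 1 held a library far from the others. Hspa8 in female wild-type 504 was at 2079.6 CPM, while the other 3 female wild-type libraries lay between 1610 and 1627 CPM, so the gap took 0.964 of the range, above Dixon's limit for 4 values. Chance marks about 1 in 20 such groups. The same library was the highest of the 8 females for all 10 chaperones and had the highest Chat level. Across the 8 females Hspa8 and Chat had r = 0.615 (exact permutation test, adjusted p = 0.324), and 0.078 without the 2 libraries farthest from the median Chat. The part of Chat or of the shared high level in the Hspa8 value of 504 itself was not tested.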

How the results depend on the processing

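No chaperone was called by the edgeR fits in either sex, over all 16 libraries or for the interaction, and this count held under most alternatives. In males it became 3 with DESeq2 (Chordc1, Hspa4l and Hsp90aa1), 1 with all 16 libraries in 1 fit (Chordc1), 2 at an adjusted p under 0.10 (Chordc1 and Hspa4l) and 1 with the motor neuron marker sum as a covariate (Chordc1, adjusted p = 0.0396; added after seeing the data). Over all 16 libraries it became 1 with DESeq2 (Hspa4l), and 0 to 1 when each library was left out. The cause of these changes was not tested. In males the 5 lower genes kept their sign over the 9 alternatives other than leaving out a library, but some effects shrank. The log2 fold change was -0.29 to -0.12 for Hsp90aa1, -0.26 to -0.14 for Hspa4l and -0.19 to -0.09 for Hspa4. Their adjusted p (edgeR or DESeq2) was up to 0.623, 0.507 and 0.760. For Chordc1 it was -0.36 to -0.33 (adjusted p up to 0.338), and for Hspa8 -0.18 to -0.15 (up to 0.560).

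Counts over all genes moved more. In males 317 became 168 with library totals, 523 without a filter, 853 with DESeq2, 609 with all 16 libraries, 1219 at 0.10, 88 with 1 surrogate variable and 98 to 217 with each library left out (217 without Pink1-/- 19, at most 188 without any other). In females 9 became 58 with DESeq2, 17 with all 16 libraries, 16 with 1 surrogate variable and 7 to 16 with each left out (16 without wild-type 980). Over all 16 libraries 103 became 253 with DESeq2 and 56 to 282 with each left out (282 without female wild-type 980). For the interaction 12 became 3 with library totals, 19 without a filter, 122 with DESeq2 and 3 to 13 with each left out.

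Signs changed only where the change was near 0 or the error wide. In males, 1 surrogate variable gave -0.0311 for Hsp90ab1 and -0.12 for Dnajb1. In females Hspb1 became 0.0343 with 1 surrogate variable and 0.29 with the motor neuron covariate, and the interaction of Dnajb1 became 0.017 with library totals. With each library left out, male values ranged from -0.0758 to 0.0993 for Dnajb1, -0.0774 to 0.0276 for Fkbp4 and -0.055 to 0.0613 for Hsp90ab1. Female values ranged from -0.00533 to 0.0704 for Chordc1, -0.0298 to 0.0889 for Dnajb1, -0.146 to 0.000349 for Hsp90ab1, -0.104 to 0.0341 for Hspa8 and -0.781 to 0.0655 for Hspb1. Over all 16 they ranged from -0.0193 to 0.0567 for Dnajb1, -0.0665 to 0.00118 for Hsp90ab1, -0.354 to 0.132 for Hspb1 and -0.0691 to 0.0296 for Hsph1. The interaction ranged from -0.081 to 0.0912 for Dnajb1 and -0.106 to 0.57 for the second Hspa8 row.

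The female Fkbp4 to Fkbp5 log2 difference was 0.00312 by medians and -0.175 to 0.0223 with each library left out, and the male one -0.15 to -0.032 (past the threshold without Pink1-/- 25). The female Hsp90aa1 to Hsp90ab1 difference ranged from -0.0965 to 0.000141. No paired analysis was possible because animal numbers differ between all 16 libraries.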
